A study of Homo sapiens with 6 samples.

Results

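The mTOR complexes and their upstream controls are described here by the transcripts of 10 genes: MTOR, RPTOR, RICTOR, MLST8, AKT1S1, DEPTOR, TSC1, TSC2, RHEB and EIF4EBP1. They were chosen by name, as the rows of the count table that carry these symbols, and all 10 were found among 16934 genes. RNA was sequenced from A375, an established human melanoma cell line with an activating BRAF mutation. The line was edited with Alt-R CRISPR-Cas9 and either a non-targeting sgRNA (control, 3 libraries) or an sgRNA against POLK, the gene for the error-prone DNA polymerase kappa (POLK sgRNA, 3 libraries). Both groups are A375 cells that went through editing, and no drug treatment is named for either. Whether the libraries of each group are separate cultures, or repeats from 1 edited population, is not stated in the labels. The p-values therefore measure spread among libraries, which could be technical only.

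The kinase mTOR works in a pair of complexes that share the subunit mLST8. Complex 1 is built on the scaffold raptor (RPTOR), sits on the lysosome, and drives protein synthesis and growth when amino acids and growth factors are present. Complex 2 is built on rictor (RICTOR) and phosphorylates AKT. The GTPase RHEB switches complex 1 on, and the TSC1-TSC2 complex holds RHEB in its inactive form. In melanoma with mutant BRAF, ERK and its downstream kinase RSK phosphorylate TSC2 and raptor, which links the oncogene to this pathway.

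Library totals lay between 42852645 and 56891905 counts, and the 10 genes had 544 to 12640 counts in a library. Within a group, the 6 pairs of libraries had a chi-square of 1.98 to 4.02 for each degree of freedom, so no column is a copy of another. This does not show whether they are separate cultures, and n counts libraries throughout. Levels are given as CPM, counts scaled to a common library total with edgeR's TMM factors. SOX10, a transcription factor of the melanocyte lineage, stood at 1059.9 ± 12.5 CPM (SD, n = 3) in control and 1155 ± 28.99 CPM (SD, n = 3) in POLK sgRNA libraries. MITF went from 28.3 ± 0.04 to 32.9 ± 1.23 CPM and S100B from 69.8 ± 4.98 to 88.6 ± 0.22 CPM (SD, n = 3 each). The pigment genes PMEL, MLANA, TYR and DCT were under 1 CPM on average in both groups. Control library 1 stood apart for DCT, at 1.49 CPM against 0.037 and 0.021 CPM in control libraries 2 and 3. It also did for TYR, at 0.44 CPM against 0 in both. Markers of other cell types were present at low sums: leukocyte markers, mostly CD68 and LYZ, at 17.3 to 17.6 CPM in control and 58.0 to 60.1 CPM in POLK sgRNA libraries (4 of 5 in the table), while PTPRC and CD3E were under 0.04 CPM on average. Fibroblast markers (5 of 5) summed to 15.4 to 15.9 and 26.8 to 27.0 CPM, epithelial markers (5 of 5) to 22.1 to 23.2 and 31.0 to 32.4 CPM, and endothelial markers (4 of 4) to 2.93 to 3.90 and 5.57 to 6.04 CPM. Single markers did not all follow their sums. At an adjusted p under 0.05, 3 fibroblast and 3 endothelial markers were higher and 1 of each was lower. The lower ones were COL1A2, at 0.72 ± 0.33 and 0.33 ± 0.16 CPM, and CDH5, at 0.36 ± 0.05 and 0.03 ± 0.05 CPM (SD, n = 3 each). No marker in the table was at 0 in all 6 libraries, and the part of these markers in the results below was not tested. POLK itself (ENSG00000122008) had 23.4, 24.0 and 22.4 CPM in the control libraries and 19.2, 17.2 and 18.1 CPM with the POLK sgRNA. It fell by 0.36 on the log2 scale (SE 0.05), with an adjusted p of 7.9e-08 in the quasi-likelihood test of edgeR after Benjamini-Hochberg adjustment. This is a partial reduction of the transcript, and it does not measure the edit. The 20 tested genes nearest to POLK, 10 on each side, had a median log2 fold change of −0.12 (quartiles −0.38 and 0.11). With 25 genes on each side the median was −0.03 (quartiles −0.18 and 0.12). Whether POLK moved with its region was not tested.

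Of the 10 genes, 3 rose with the POLK sgRNA (EIF4EBP1, MLST8 and RHEB), 2 fell (AKT1S1 and RPTOR) and 5 did not pass the test (MTOR, RICTOR, TSC1, TSC2 and DEPTOR). The test was edgeR's quasi-likelihood test, adjusted over the 13930 genes that passed a filter on low counts, and a gene was called at an adjusted p under 0.05. By the same test 64.3% of all genes were called, 32.8% as higher and 31.6% as lower, so 5 called of 10 is no more than the share over the table. All differences were small. Folds ran from 0.897 to 1.14, and the median absolute log2 fold change was 0.08 over the 10 genes against 0.18 over all genes tested. The signed median was 0.03 for the 10 genes and 0.0083 for all genes. In 6 of the 10 genes the groups did not overlap, against 67.7% of all genes tested. In a bulk library, fewer cells that carry a transcript and less of it per cell cannot be told apart.

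**Figure D1:**
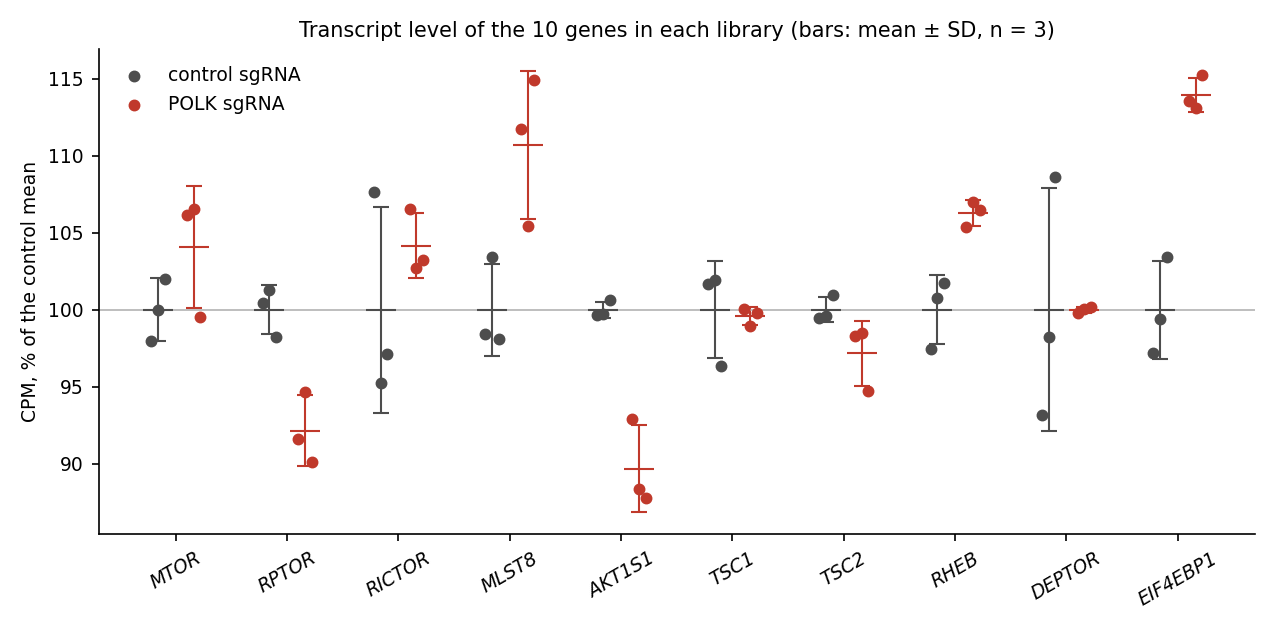
Level of each gene in each library as a percentage of its own control mean (y axis, CPM), with control libraries in grey and POLK sgRNA libraries in red; bars are the mean ± SD of 3 libraries. The red points of RPTOR and AKT1S1 lie under all grey points, those of MLST8, RHEB and EIF4EBP1 lie over them, and those of MTOR, RICTOR, TSC1 and DEPTOR overlap with them.

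MTOR, the kinase itself (ENSG00000198793, chromosome 1, 11106535 to 11262507, minus strand, GRCh38), had 137, 139.7 and 143 CPM in the control libraries and 148, 149 and 139 CPM with the POLK sgRNA. Libraries 1 and 2 of the POLK sgRNA group stood over every control library, and library 3 lay within the control range. With a log2 fold change of 0.06 (SE 0.03) and a fold of 1.04 (95% interval 1.002 to 1.08, not adjusted), the difference did not pass (edgeR's quasi-likelihood test, adjusted p = 0.063). It passed when POLK sgRNA library 3 was left out (log2 fold change 0.09, adjusted p = 0.0045), and also with library size alone as the scaling (0.07, adjusted p = 0.016) or with no filter on low counts (0.06, adjusted p = 0.0395), within a range of adjusted p from 0.0045 to 0.285 over 13 alternatives.

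MLST8, the subunit shared by both complexes (ENSG00000167965, chromosome 16, 2204248 to 2209416, plus strand), rose. It had 64.0, 67.2 and 63.8 CPM in the control libraries and 72.6, 68.5 and 74.7 CPM with the POLK sgRNA. The lowest POLK sgRNA library was only just over the highest control library. The increase was 0.15 on the log2 scale (SE 0.03), a fold of 1.11 with a 95% interval of 1.06 to 1.16 (edgeR's quasi-likelihood test, adjusted p = 0.00023). The MLST8 and MTOR transcripts are thus placed on different sides of the threshold, which does not show that their changes differ. Their ratio within a library overlapped between groups: MLST8 to MTOR was −1.104 ± 0.05 on the log2 scale (SD, n = 3) in control and −1.01 ± 0.11 (SD, n = 3) in POLK sgRNA libraries. Its exact permutation p was 0.30, but with 3 libraries against 3 the smallest possible is 0.10, so this test could not pass. It therefore does not show that both genes moved alike. MLST8 shares 164 of its 4323 exonic bases with BRICD5, which was at 1.52 ± 0.23 CPM in control and 1.20 ± 0.04 CPM in POLK sgRNA libraries. The kit does not mark strand, so reads from bases that genes share cannot be told apart.

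RPTOR, the raptor scaffold that brings substrates to complex 1 (ENSG00000141564, chromosome 17, 80544819 to 80966371, plus strand), fell. It had 104, 104 and 101 CPM in the control libraries and 94.5, 97.6 and 92.9 CPM with the POLK sgRNA. All 3 POLK sgRNA libraries stood under all 3 control libraries. RPTOR fell by 0.12 on the log2 scale (SE 0.03), a fold of 0.921 with a 95% interval of 0.886 to 0.958 (edgeR's quasi-likelihood test, adjusted p = 0.00033).

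RICTOR, the scaffold that defines complex 2 (ENSG00000164327, chromosome 5, 38937919 to 39074408, minus strand), did not pass. Its levels were 39.3, 34.8 and 35.4 CPM in the control libraries and 38.9, 37.5 and 37.7 CPM with the POLK sgRNA. Control library 1 was the highest of the 6, and the POLK sgRNA libraries lay between it and the other control libraries. Its log2 fold change was 0.06 (SE 0.04), and the 95% interval of the fold ran from 0.987 to 1.11 (adjusted p = 0.17, edgeR's quasi-likelihood test). Leaving out control library 1 raised the log2 fold change to 0.11, which passed (adjusted p = 0.018), while without any other single library it did not pass. Adjusted p ran from 0.018 to 0.664 over 13 alternatives. RICTOR shares 229 of its 13550 exonic bases with OSMR, which fell (log2 fold change −0.13, adjusted p = 0.0015 in edgeR's test).

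The stretches upstream of both scaffold genes are shown because these members define the complexes and their transcripts stood on different sides of the threshold. They are the bases of the RefSeq promoter windows (GRCh38.p14) that lie before the first annotated exon, 5′ to 3′ on the gene's own strand, in lower case because no searched motif was found in them. The RPTOR stretch lies at chr17:80544588-80544818 on the plus strand and the RICTOR stretch at chr5:39074409-39074649 on the minus strand.
RPTOR: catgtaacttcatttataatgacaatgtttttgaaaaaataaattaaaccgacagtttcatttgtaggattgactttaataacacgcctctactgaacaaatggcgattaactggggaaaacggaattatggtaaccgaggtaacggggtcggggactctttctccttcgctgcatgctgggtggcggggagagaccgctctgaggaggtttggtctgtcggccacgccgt
RICTOR: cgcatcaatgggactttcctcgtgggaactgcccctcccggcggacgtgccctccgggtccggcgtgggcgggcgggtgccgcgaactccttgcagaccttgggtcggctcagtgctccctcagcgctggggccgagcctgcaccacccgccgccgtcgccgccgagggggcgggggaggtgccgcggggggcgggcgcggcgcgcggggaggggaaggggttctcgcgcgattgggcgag

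These stretches differed in base composition, with G or C at 45.5% of 231 bases for RPTOR and 76.8% of 241 bases for RICTOR. Whether composition has any relation to the changes of these genes was not tested. Over all 35116 promoter windows, the 250 bases before the start had a median of 58.0% (quartiles 46.4 and 68.0%). The table held a window for 6 of the 10 genes: MTOR, RPTOR, RICTOR, TSC1, TSC2 and RHEB. Each whole window of 300 bases was searched on both strands for CACGTG (the E-box bound by MITF and TFEB, in 7.26% of all windows), TGATGNAA (an ATF4 element, in 3.62%) and CCGGAAGT (an ETS site, in 4.14%). The windows of MTOR, RPTOR, RICTOR, TSC1 and RHEB held none of these letters.

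Ratios of counts within a library compare members without any scaling of libraries. Exact permutation tests over the 6 libraries were run for 9 ratios, and with 3 libraries against 3 the smallest p such a test allows is 0.10, so none could pass. RPTOR to RICTOR, the scaffold of complex 1 against that of complex 2, was 1.40, 1.59 and 1.51 on the log2 scale in control and 1.28, 1.38 and 1.30 in POLK sgRNA libraries. All POLK sgRNA values were under all control values, with a difference of −0.18 (exact permutation p = 0.10, adjusted over the 9 ratios 0.22). Control library 1, where RICTOR was highest, came close to POLK sgRNA library 2. MTOR to RPTOR was higher with the POLK sgRNA in every library, at 0.65, 0.61 and 0.58 against 0.40, 0.42 and 0.49 on the log2 scale (difference 0.18, exact permutation p = 0.10, adjusted 0.22). MTOR to RICTOR overlapped fully between groups, with means of 1.93 ± 0.05 (SD, n = 3) in POLK sgRNA and 1.94 ± 0.12 (SD, n = 3) in control libraries (exact permutation p = 1).

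**Figure D2:**
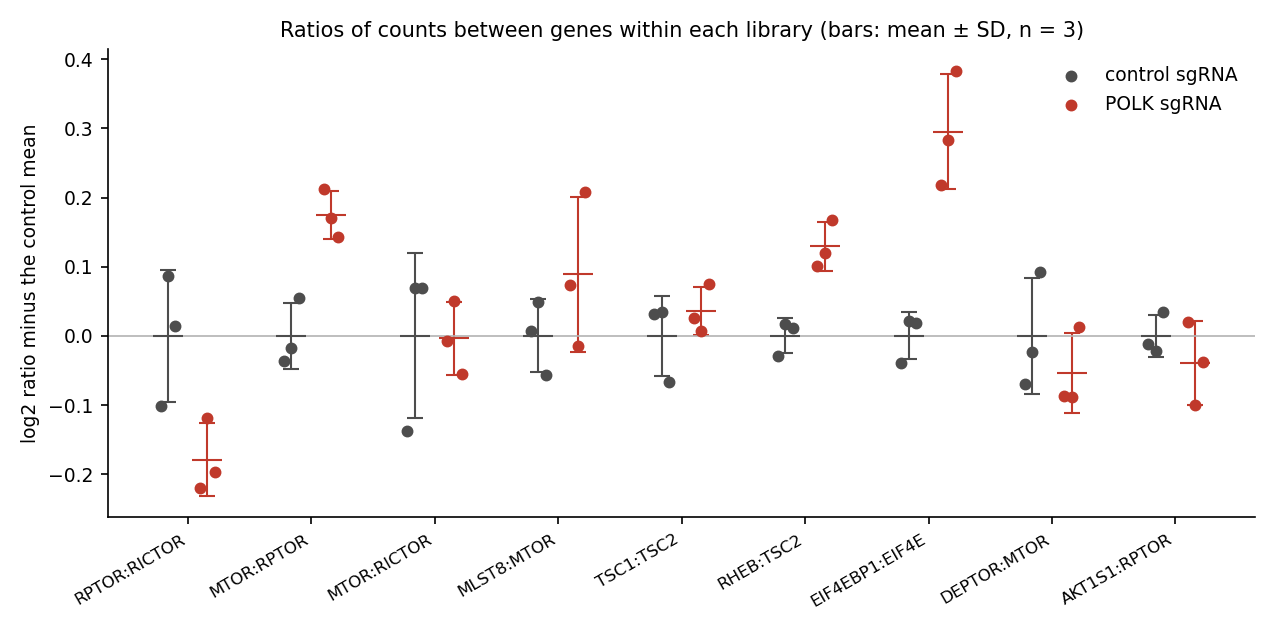
Log2 ratio of counts between pairs of genes within each library, drawn relative to the control mean of that pair (y axis), with control libraries in grey, POLK sgRNA libraries in red and bars for the mean ± SD of 3 libraries. The groups are apart for RPTOR to RICTOR (−0.18), MTOR to RPTOR (0.18), RHEB to TSC2 (0.13) and EIF4EBP1 to EIF4E (0.30), and they overlap for the other 5 pairs.

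AKT1S1 encodes PRAS40, an inhibitory partner of raptor that AKT phosphorylates (ENSG00000204673, chromosome 19, 49869033 to 49878459, minus strand). It had 231, 231 and 233 CPM in the control libraries and 216, 205 and 204 CPM with the POLK sgRNA. The control libraries were close together, and every POLK sgRNA library stood well under them. It fell by 0.16 on the log2 scale (SE 0.02), a fold of 0.897 with a 95% interval of 0.867 to 0.928 (edgeR's quasi-likelihood test, adjusted p = 1.0e-06). RPTOR, whose protein binds PRAS40, also fell, by 0.12 on the log2 scale. The log2 ratio of AKT1S1 to RPTOR overlapped between groups, at 1.17 ± 0.03 in control and 1.13 ± 0.06 in POLK sgRNA libraries (SD, n = 3 each). Its exact permutation p was 0.40, but with 3 libraries against 3 this test could not pass. It therefore does not show that both genes moved alike.

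DEPTOR, the inhibitory subunit found in both complexes (ENSG00000155792, chromosome 8, 119873717 to 120050913, plus strand), was the lowest of the 10 genes in CPM. Its levels were 12.7, 13.4 and 14.8 CPM in the control libraries and 13.6, 13.6 and 13.7 CPM with the POLK sgRNA. The POLK sgRNA libraries were nearly equal and lay inside the control range. DEPTOR's log2 fold change was −0.0016 (SE 0.06), with a 95% interval of the fold from 0.921 to 1.08 (adjusted p = 0.98, edgeR's quasi-likelihood test). A change inside that interval was not detectable at this depth. DEPTOR and AKT1S1, the genes for inhibitory subunits, thus gave different calls, and the difference between their changes was not tested. DEPTOR to MTOR overlapped between groups, at −3.36 ± 0.08 on the log2 scale in control and −3.41 ± 0.06 in POLK sgRNA libraries (SD, n = 3 each, exact permutation p = 0.50).

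TSC1, which encodes hamartin, the stabilising subunit of the TSC complex (ENSG00000165699, chromosome 9, 132891348 to 132946874, minus strand), had 38.6, 38.7 and 36.6 CPM in the control libraries and 38.0, 37.5 and 37.9 CPM with the POLK sgRNA. All POLK sgRNA libraries lay inside the control range. TSC1 had a log2 fold change of −0.0058 (SE 0.04), with a 95% interval of the fold from 0.946 to 1.05 (adjusted p = 0.897, edgeR's quasi-likelihood test).

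TSC2 encodes tuberin, the subunit that makes RHEB hydrolyse GTP and the one that ERK, RSK and AKT phosphorylate (ENSG00000103197, chromosome 16, 2047465 to 2089487, plus strand). Its levels were 152, 152 and 154 CPM in the control libraries and 149.9, 150.2 and 144 CPM with the POLK sgRNA. The groups did not overlap, but POLK sgRNA libraries 1 and 2 were within 2 CPM of the lowest control library. TSC2 had a log2 fold change of −0.04 (SE 0.02), with a 95% interval of the fold from 0.939 to 1.01, and it did not pass (adjusted p = 0.15, edgeR's quasi-likelihood test). TSC2 shares 1180 of its 19626 exonic bases with NTHL1 and PKD1, and PKD1 had a log2 fold change of 0.21 (SE 0.06, adjusted p = 0.026 in edgeR's test). PKD1 has near-identical pseudogene copies, so its own value is uncertain. TSC1 to TSC2 was −2.01 ± 0.06 on the log2 scale in control and −1.97 ± 0.04 in POLK sgRNA libraries (SD, n = 3 each, exact permutation p = 0.60).

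TSC2 was the member with a promoter window that matched the searched motifs, so the place of those matches is shown. The 30 bases below lie at chr16:2047862-2047891 (GRCh38.p14, RefSeq, plus strand, 5′ to 3′), and capitals mark an E-box and an ATF4 element that overlap each other.
TSC2: cggccccgtCACGTGATGCAAggatcgccg

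RefSeq gives TSC2 a pair of starts. The E-box began 114 bases and the ATF4 element 110 bases before the upstream one, and the ETS site lay nearer to it, at 17 bases. The window of the downstream start held the ETS site alone. In GENCODE 29 the stretch shown lies inside the first exon of a longer TSC2 transcript, which begins at 2047465, and before the starts of the others. A match is a description of the sequence and does not show that a factor binds there.

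RHEB, the GTPase that activates complex 1 (ENSG00000106615, chromosome 7, 151466012 to 151520120, minus strand), rose slightly. It had 116, 120.2 and 121 CPM in the control libraries and 126, 128 and 127 CPM with the POLK sgRNA. Every POLK sgRNA library stood over every control library. RHEB's log2 fold change was 0.09 (SE 0.03), a fold of 1.06 with a 95% interval of 1.02 to 1.101 (edgeR's quasi-likelihood test, adjusted p = 0.0035). RHEB and EIF4EBP1 have processed pseudogenes in the annotation, and how reads matching such copies were counted is not known here, so their values carry that uncertainty. The ratio of RHEB to TSC2, the activator against its main brake, was −0.38, −0.34 and −0.34 on the log2 scale in control and −0.25, −0.23 and −0.19 in POLK sgRNA libraries. It was higher in 3 of 3 POLK sgRNA libraries, by 0.13 (exact permutation p = 0.10, the smallest possible, adjusted 0.22).

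EIF4EBP1 encodes 4E-BP1, the translation repressor that complex 1 phosphorylates to release the cap-binding factor eIF4E (ENSG00000187840, chromosome 8, 38030341 to 38060365, plus strand). It moved furthest of the 10 genes. Its levels were 189, 193 and 201 CPM in the control libraries and 221, 219.9 and 224 CPM with the POLK sgRNA. The lowest POLK sgRNA library was well over the highest control library. The increase of EIF4EBP1 was 0.19 on the log2 scale (SE 0.02), a fold of 1.14 with a 95% interval of 1.101 to 1.18 (edgeR's quasi-likelihood test, adjusted p = 3.8e-08). Even so, 49.1% of all genes tested had a larger absolute log2 fold change.

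EIF4E, the target of 4E-BP1, moved the other way, from 82.6 ± 1.71 to 76.8 ± 3.84 CPM (SD, n = 3 each). Its log2 fold change was −0.10 (SE 0.03, edgeR's quasi-likelihood test, adjusted p = 0.0054), and it lost the call when POLK sgRNA library 3 was left out (−0.07, adjusted p = 0.068). EIF4EBP1 to EIF4E was 1.194, 1.254 and 1.252 on the log2 scale in control and 1.45, 1.52 and 1.62 in POLK sgRNA libraries. That ratio had the largest difference of the 9, at 0.30 (exact permutation p = 0.10, adjusted 0.22), and its groups were far apart.

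The 10 genes differed far more from each other in level than between the groups. Levels per length were computed as RPKM over the union of annotated exons. EIF4EBP1 was highest, at 181 ± 5.74 RPKM in control libraries (SD, n = 3), followed by AKT1S1 at 40.4 ± 0.22, RHEB at 33.8 ± 0.76 and MLST8 at 15.04 ± 0.45 RPKM. MTOR at 11.5 ± 0.23 and RPTOR at 10.0 ± 0.16 RPKM were close, TSC2 stood at 7.77 ± 0.06 and DEPTOR at 5.20 ± 0.41 RPKM, and RICTOR at 2.69 ± 0.18 and TSC1 at 2.16 ± 0.07 RPKM were lowest. Each neighbour in this order differed by more than the SDs of both.

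That order depends on the length used. Over the longest coding transcript of each gene, TSC2 stood at 24.0 ± 0.20 RPKM, over MTOR at 16.1 ± 0.33 and RPTOR at 16.1 ± 0.25, which no longer differed beyond their spread, and TSC1 at 4.35 ± 0.14 stood over RICTOR at 3.82 ± 0.26 RPKM. EIF4EBP1, AKT1S1, RHEB and MLST8 were the highest with both lengths. The scaffold transcript of complex 1 was several times as abundant as that of complex 2 with both lengths.

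**Figure D3:**
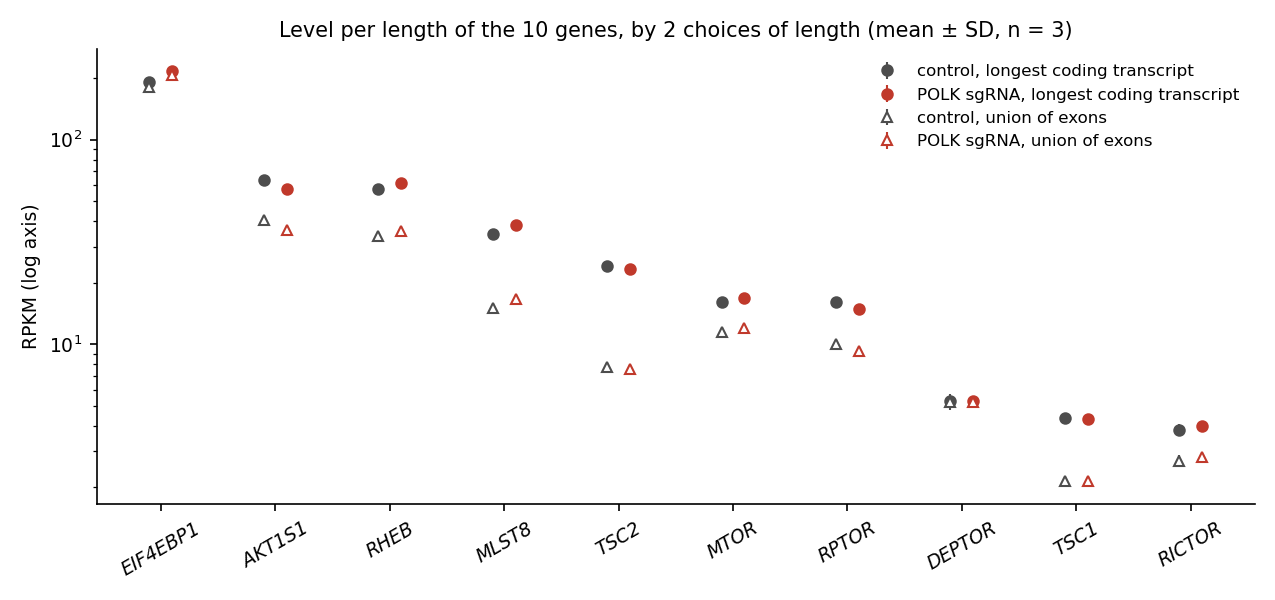
Level per length (RPKM, log axis) of the 10 genes in control (grey) and POLK sgRNA (red) libraries, mean ± SD of 3 libraries, with filled circles for the longest coding transcript and open triangles for the union of exons. EIF4EBP1 is at the top with 181 RPKM over the union of exons in control, RICTOR and TSC1 are at the bottom, and TSC2 is the gene whose circle and triangle lie furthest apart.

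Whether members moved with the genes around them was described with the 20 tested genes nearest to each, 10 on each side. The neighbours' median log2 fold change was near 0 for the members that were called: −0.0058 for EIF4EBP1, −0.02 for MLST8, −0.01 for RHEB, −0.03 for AKT1S1 and −0.02 for RPTOR. Less that median, the 5 called members stood at 0.19, 0.17, 0.10, −0.13 and −0.09 in the same order, so each kept its sign. The quartiles of the neighbours were wider than most of these values, for example −0.14 to 0.21 around AKT1S1. RICTOR, at 0.06, stood beside a median of 0.07 in these neighbours and of −0.03 over 25 genes on each side, so the sign of its difference from them depends on the window. TSC1, at −0.0058, lay over its neighbours, at −0.07.

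**Figure D4:**
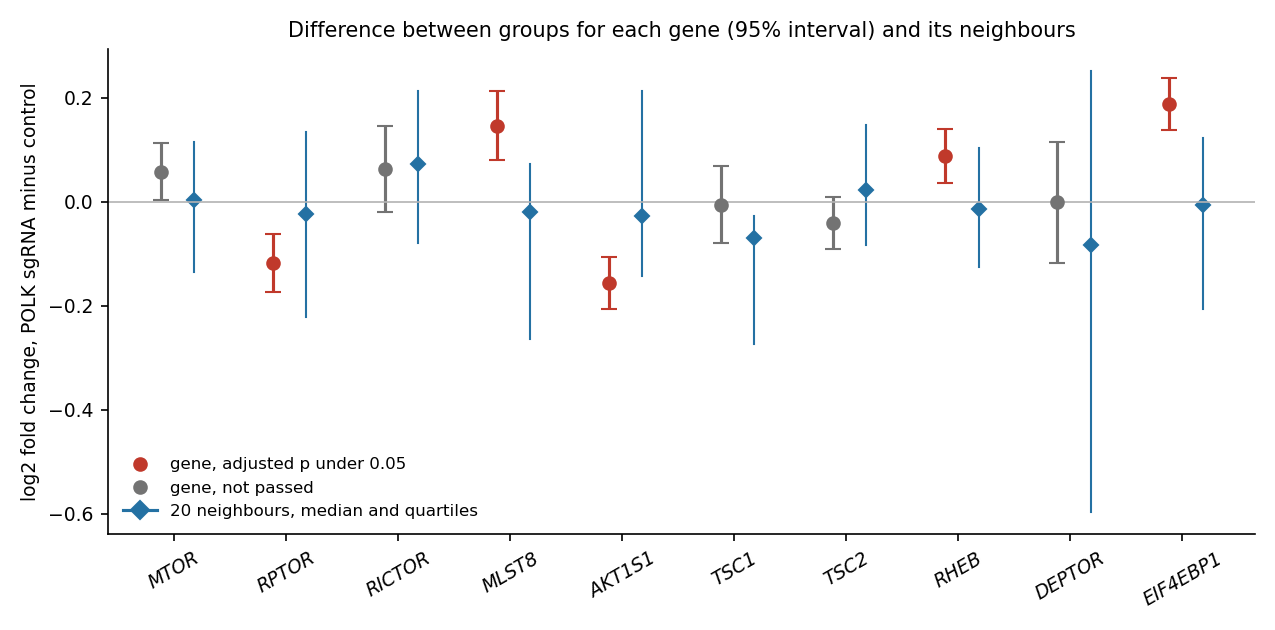
Log2 fold change of each gene (circles with 95% intervals, red where the adjusted p was under 0.05 and grey otherwise) beside the median and quartiles of its 20 nearest tested genes (blue diamonds and lines). The 5 red circles lie between −0.16 and 0.19, and their neighbours' medians lie between −0.03 and 0.

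Another 92 genes of the pathway were placed in 8 lists by role, and 89 of them were tested. Of these 36 rose, 23 fell and 30 did not pass, so 66.3% were called against 64.3% of all genes, and the median of their log2 fold changes was 0.03. The values set the 10 genes beside their regulators and targets. The share called was near that over all genes, and whether any list differs from other genes was not tested.

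Among partners of complex 2 and the TELO2-TTI1-TTI2 complex, which helps mTOR and related kinases to fold, 3 of 6 rose, 1 fell and 2 did not pass (median 0.04). TTI1 rose from 83.1 ± 1.94 to 107.7 ± 1.96 CPM and TELO2 from 55.9 ± 0.74 to 62.3 ± 0.88 CPM, by log2 fold changes of 0.38 and 0.16. PRR5, a subunit that binds rictor, fell from 5.97 ± 0.24 to 3.90 ± 0.22 CPM, by 0.61 on the log2 scale, a larger change than in any of the 10 genes. Of all genes tested, 49.1% also moved further than any of the 10 genes, and 14.6% further than PRR5. The 20 neighbours of TTI1 had a median of 0.16, and those of PRR5 a median of 0.0060.

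Of TBC1D7 and a set of inhibitors of complex 1, not all of them induced by stress, 8 of 9 were tested. Of these 1 rose, 2 fell and 5 did not pass (DDIT4, SESN2, CASTOR1, CASTOR2 and BMT2), with a median of −0.03. TBC1D7, the subunit that joins TSC1 and TSC2 in the TSC complex, rose from 13.5 ± 0.95 to 15.7 ± 1.06 CPM, while TSC1 and TSC2 did not pass. Its log2 fold change of 0.22 equalled the median of its 20 neighbours, at 0.22. Sestrin proteins restrain complex 1 under stress, and their genes did not all fall. SESN3 fell from 20.1 ± 0.17 to 15.6 ± 0.99 CPM and SESN1 from 17.0 ± 0.85 to 14.6 ± 0.36 CPM. SESN2 had a log2 fold change of −0.0054 (adjusted p = 0.92, edgeR's quasi-likelihood test).

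Genes of the lysosomal platform that recruits complex 1 rose in 6 of 13 cases and fell in 2, with 5 not passing (median 0.05). SLC38A9, a lysosomal arginine sensor, rose from 14.1 ± 0.72 to 17.6 ± 1.08 CPM and LAMTOR1, the Ragulator subunit that anchors the platform, from 81.4 ± 1.88 to 90.6 ± 0.23 CPM. FNIP2, a partner of folliculin, fell from 16.1 ± 0.54 to 13.2 ± 0.62 CPM. In the GATOR and KICSTOR complexes, which relay amino acid supply to the Rag GTPases, 6 of 12 rose, 2 fell and 4 did not pass (median 0.10). Of the subunits of GATOR2, WDR24 rose from 26.2 ± 1.72 to 33.3 ± 0.42 CPM and WDR59 fell from 50.1 ± 0.37 to 39.5 ± 0.80 CPM. WDR59 moved as its region did, with a log2 fold change of −0.34 against a median of −0.38 in its 20 neighbours, of which 16 fell and 2 rose. WDR24, at 0.35, had neighbours with a median of 0.15, of which 11 rose. The KICSTOR gene KICS2 (C12orf66 in the file), on chromosome 12, rose from 6.39 ± 0.48 to 11.2 ± 0.26 CPM, a log2 fold change of 0.81 beside a neighbour median of 0.57.

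Of 18 PI3-kinase and AKT genes 17 were tested, of which 9 fell, 2 rose and 6 did not pass (median −0.10). The share called was 64.7%, near the 64.3% of all genes, and no test compared the list's direction with that of other genes. IGF1R, a growth factor receptor gene, fell from 295 ± 0.52 to 174 ± 3.09 CPM and IRS1, the adaptor it signals through, from 38.7 ± 0.86 to 25.1 ± 1.03 CPM, by 0.76 and 0.62 on the log2 scale. AKT2 rose from 200.1 ± 0.93 to 230.0 ± 4.23 CPM. Both IGF1R and IRS1 moved further than any of the 10 genes, as did 49.1% of all genes tested, and they were named for the smallest p in their list. Of all genes tested, 10.5% had a larger absolute log2 fold change than IGF1R and 14.3% than IRS1. The medians of the neighbours of IGF1R and IRS1 were −0.03 and 0.11.

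Genes of LKB1 and AMPK, the energy sensor that activates TSC2 and restrains raptor, rose in 6 of 10 cases and fell in 2, with 2 not passing (median 0.26). PRKAG1, a regulatory subunit, rose from 65.9 ± 0.29 to 126 ± 3.78 CPM, PRKAB1, another, from 16.7 ± 0.68 to 28.8 ± 0.75 CPM, and CAMKK2, an upstream kinase, from 34.6 ± 1.66 to 53.2 ± 1.04 CPM. All 3 lie on chromosome 12, where 571 of 738 tested genes rose with a median of 0.50, and the medians of their 20 neighbours were 0.52, 0.72 and 0.59. On other chromosomes 3 of 7 rose and 2 fell (median 0.07). None of the 10 genes lies on chromosome 12. Of ERK and p90 RSK genes 4 of 5 tested rose and none fell (median 0.11), against 64.3% called and 32.8% higher over all genes. With so few genes and no test of the list, this direction is a description only. In control and POLK sgRNA libraries, MAPK3 stood at 60.6 ± 0.98 and 70.2 ± 1.12 CPM. RPS6KA2 stood at 24.5 ± 1.32 and 28.9 ± 1.23 CPM, and RPS6KA1 at 87.7 ± 0.50 and 93.9 ± 0.49 CPM. The medians of the 20 neighbours of MAPK3, RPS6KA2 and RPS6KA1 were 0.10, −0.02 and 0.0077.

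Among substrates and effectors of the complexes other than EIF4EBP1, 8 of 18 rose, 5 fell and 5 did not pass (median 0.05). EIF4B, a cofactor of the eIF4A helicase, rose from 659 ± 5.36 to 1079.9 ± 13.8 CPM and ULK1, the kinase that starts autophagy, from 35.6 ± 0.74 to 48.3 ± 0.80 CPM. Both lie on chromosome 12, with neighbour medians of 0.66 and 0.51. PDCD4, an inhibitor of the eIF4A helicase, rose from 93.8 ± 4.58 to 119.6 ± 2.01 CPM, and EIF4EBP2, the paralog of EIF4EBP1 and named after its values were seen, from 102.1 ± 2.27 to 121.9 ± 1.65 CPM (log2 fold change 0.26). Apart from EIF4E, given above, the called genes named in these lists had adjusted p-values between 1.3e-24 and 0.0018 in edgeR's quasi-likelihood test.

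**Figure D5:**
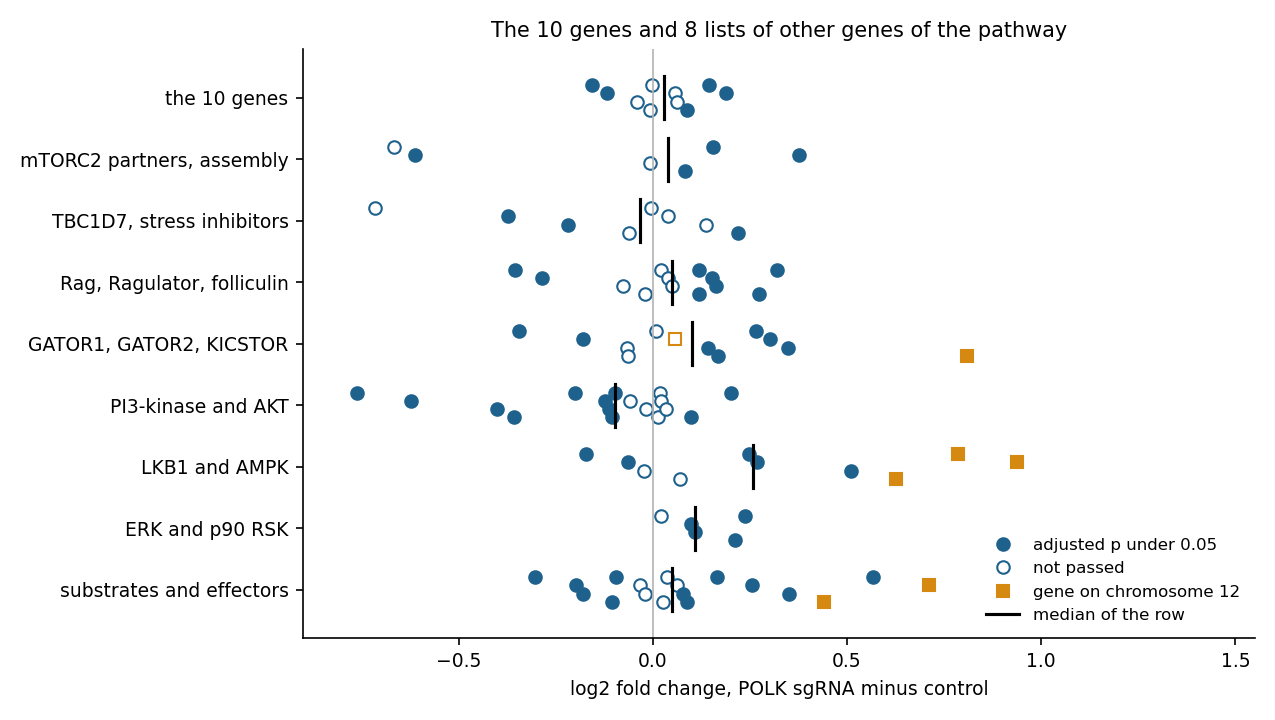
Log2 fold change (x axis) of the 10 genes in the top row and of the tested genes of the 8 lists in the rows under it; filled symbols have an adjusted p under 0.05, squares are genes on chromosome 12, and black bars are row medians. The 10 genes lie within 0.19 of 0, and 6 of the 7 squares are filled and lie at 0.44 or more; the open square is ITFG2.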

How the data were processed

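The authors deposited raw counts per gene, not normalized, in 1 table with a column for each of 6 libraries (per the file headers). The tools named are STAR, Trimmomatic, FastQC and DESeq2, with build GRCh38, per the submitters' processing notes. What counted the reads, with which settings and annotation release, is not given in the sources used. The kit, TruSeq RNA V2 per the labels' protocols, does not mark strand.

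From these counts, edgeR 4.0.16 (R 4.3.3) was run on all genes: filterByExpr (minimum count 10, minimum total 15) kept 13930 of 16934 genes, libraries were scaled by TMM (factors 0.991 to 1.007), and groups were compared with the robust quasi-likelihood F test, two-sided, without covariates. Benjamini-Hochberg adjustment covered every tested gene, with a threshold of 0.05. An SE is the size of the log2 fold change divided by √F. On simulated counts the test called 34% of genes set to a fold of 1.1, 82% at 1.25 and 0.07% of unchanged genes. Far fewer genes were changed there than were called in the data, so these shares do not carry over exactly. Not passing does not show that a gene was unchanged. CPM and RPKM use TMM-scaled totals. Lengths, positions and exon overlaps came from GENCODE 29, on the same build. Named genes are POLK, the 10 genes, the 3 with the smallest p in each of 8 lists, and genes used in ratios. Within-library ratios had 0.5 added to each count. Alternatives were DESeq2 1.42.0 or its size factors, library size alone, no filter, a mean CPM of 1, limma-voom (limma 3.58.1), the replicate number as a block, and leaving out each library. Neighbour-corrected values, lists without chromosome 12, and lengths of coding transcripts were added after seeing the data. The members and lists were chosen with earlier results of these data known. One overlap between genes is not reported here.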

Additional observations from a re-analysis of the deposited data

How the results depend on the processing

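The 5 called members kept their direction and stayed past the threshold under all 13 alternatives: EIF4EBP1 between 0.16 and 0.21 on the log2 scale, MLST8 between 0.12 and 0.18, RHEB between 0.06 and 0.10, RPTOR between −0.14 and −0.10, and AKT1S1 between −0.18 and −0.14. TSC2 stayed short of it (adjusted p 0.096 to 0.50). For TSC1 and DEPTOR, both near 0, the sign turned: TSC1 was 0.0100 with library size alone and between −0.036 and 0.0063 on leaving out 1 library, and DEPTOR was 0.014 with library size alone, 0.0023 with no filter, 0.0017 with the replicate block, 0.00043 with limma-voom and between −0.052 and 0.056 on leaving out 1 library. The cause was not tested. Less the median of the 20 neighbours, added after seeing the data, TSC1 stood at 0.06, DEPTOR at 0.08 and RICTOR at −0.0085 (0.09 with 25 genes on each side). Over all genes tested, 4181 to 4441 were higher and 4091 to 4286 lower on leaving out 1 library.

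Small list counts moved. Of the PI3-kinase and AKT list, 1 gene in place of 2 was higher with library size alone, a mean CPM of 1 or the replicate block, and 1 to 2 on leaving out 1 library. For the LKB1 and AMPK list, 1 gene in place of 2 was lower with library size alone, no filter, DESeq2 or the replicate block, and 1 to 2 on leaving out 1 library. Without chromosome 12 genes, 3 of 7 genes of that list in place of 6 of 10 were higher. The 3 genes removed were all higher, and the median of the list went from 0.26 to 0.07. In the list of TBC1D7 and inhibitors of complex 1, 2 genes in place of 1 were higher with library size alone.

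Libraries with the same replicate number did not deviate together (r = −0.01, −0.04 and 0.01 for numbers 1, 2 and 3), so the numbers were not taken as pairs. With the replicate block 4483 genes were higher and 4290 lower, and no call of a member changed.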
